A study of Mus musculus with 12 samples.

Results

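Growth plate cartilage was compared with articular cartilage in mice without Cre, using 6 of the 12 RNA libraries of a study of Sox9 and Sox8 in adult cartilage. The 6 were chosen by genotype: every library whose label carries no AcanCreER was taken, which gave 3 growth plate and 3 articular cartilage libraries. All were made from knees of mice aged 3 months, from tissue areas cut out by laser from frozen sections. Both tissues were sampled in Sox9fl/fl mice at day 7, in Sox9fl/fl mice at day 14 and in Sox8fl/fl Sox9fl/fl mice at day 14, so each growth plate library has an articular library of the same alleles and day. All 6 therefore carry floxed alleles, and the column headers name a R26tdT reporter allele for the Sox9fl/fl sets as well. The start of the day count is not stated in the labels. The labels do not tie captured regions to animals, so libraries of a pair, or the sections behind a library, may share an animal, and p-values over these regions may be too small. The comparison asks which genes set the shaft-side growth cartilage apart from the cartilage of the joint surface when neither has lost Sox9 or Sox8.

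Articular cartilage covers the bone ends for life, and its surface cells secrete lubricin, the product of Prg4. Growth plate chondrocytes instead pass through resting, columnar and hypertrophic stages, and the hypertrophic cartilage is mineralised, eroded by osteoclast-like cells and replaced by bone. Indian hedgehog from prehypertrophic cells and parathyroid hormone-related protein, which signals through the receptor Pth1r, form the classical loop that sets the pace of this maturation. Both tissues are built on type II collagen and aggrecan under the control of Sox9.

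The deposited values are RPKM, a read density corrected for transcript length and library size, in which 1 is the lowest number listed. Values below are given in the order Sox9fl/fl day 7, Sox9fl/fl day 14 and Sox8fl/fl Sox9fl/fl day 14, and these are called the day 7, the day 14 and the double-floxed pair. Differences are on the log2(value + 1) scale, growth plate minus articular cartilage, as the mean over the 3 control pairs. The standard error (SE) is that of limma. Its spread is estimated from all 12 libraries, so it can be larger or smaller than the spread of the 3 control pairs alone. A gene was called when its limma p, adjusted by Benjamini-Hochberg over 14712 genes, was under 0.05. Where all 3 libraries of a tissue stood at 1, no fold is given.

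Prg4, Ihh and Panx3 had the order that the tissue labels give, whereas the hypertrophic marker Col10a1 overlapped between tissues. Prg4 was at 24374, 24884 and 32446 in articular cartilage and at 3.61, 36.4 and 11.95 in growth plate. Ihh and Panx3, markers of prehypertrophic and hypertrophic cells, were far above their articular level in all 3 growth plates, as given below. Correlations of log2 values over all genes ran from 0.922 to 0.947 between libraries of the same tissue and from 0.817 to 0.867 between tissues. The female transcript Xist was at 68.2 and 76.5 in the double-floxed pair and at 1 in the Sox9fl/fl pairs, so the libraries of a pair matched in sex. A single predicted transcript, AC087541.1, accounted for 25.1 to 45.1% of a library's total and for more in the growth plate of every pair.

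Of the 14712 genes, 1896 (12.9%) were called, 627 (4.26%) higher and 1269 (8.63%) lower in growth plate. Every called gene differed in the same direction in all 3 pairs, and for 1781 of them the 3 growth plate values lay wholly above or below the 3 articular values. Without regard to the test, the groups did not overlap for 4160 genes (28.3%), with growth plate above for 1370 (9.31%) and below for 2790 (19.0%). Differences of at least 4 on the log2 scale were found for 24 called genes on the growth plate side and 33 on the articular side. The median over all genes was -0.10, and this offset bears on the balance of the calls: after quantile normalisation 899 were higher and 1003 lower, and after median ratio scaling 913 and 1059. Counts also depend on the number of pairs, since leaving out either library of a pair takes that pair out of the contrast. The 6 control libraries fitted alone gave 866 calls, and fits without 1 library gave 894 to 1063. Of 273 called genes in the lists described below, 158 were called with the 6 control libraries alone. The counts of each list below are to be read beside the shares over all genes, 4.26% higher and 8.63% lower.

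**Figure D1:**
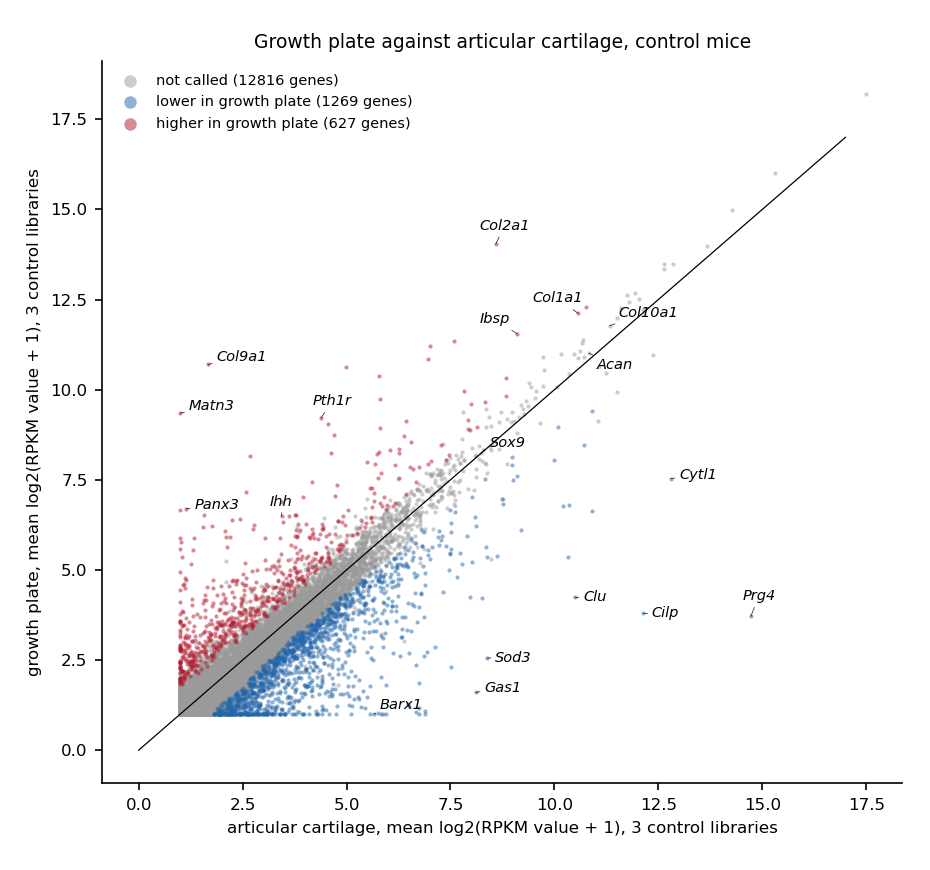
Mean log2(RPKM value + 1) of each of 14712 genes in the 3 control growth plates (vertical) against the 3 control articular cartilages (horizontal); the line marks equal values, red and blue points are genes called higher (627) or lower (1269) in growth plate. Prg4 and Cilp lie farthest below the line, Col9a1 and Matn3 farthest above it, and Sox9, Acan and Col10a1 lie near it.

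Most of the listed matrix genes of hyaline cartilage were higher in growth plate. Of 24 listed matrix genes, 16 were called higher and 1, Cytl1, lower, with a list median of 2.56 against -0.10 for all genes. Other matrix genes, among them Prg4, Cilp, Dcn and Tnxb, were counted in other lists and were called lower. The balance is therefore that of this list. The largest difference was that of Col9a1 (chr1:24177610-24252684, plus strand), which encodes a chain of type IX collagen, the collagen that decorates type II fibrils. Its values were 2.34, 1.94 and 2.27 in articular cartilage and 2465, 1566 and 1189 in growth plate. No articular library came near any growth plate library, and the difference was 9.03 ± 0.41 (SE from all 12 libraries, n = 3 control pairs, limma adjusted p = 1.8e-05). The partner chains Col9a2 and Col9a3 were present in both tissues, Col9a2 at 218, 137 and 70.4 in articular cartilage and 3767, 2151 and 1687 in growth plate. The difference was 4.21 ± 0.68 for Col9a2 and 4.58 ± 0.65 for Col9a3, so Col9a1 stood apart from its partners in its near absence from articular cartilage. Type II collagen itself, Col2a1, had 401, 313 and 451 in articular cartilage against 21242, 13921 and 16033 in growth plate. The groups were far apart, by 5.45 ± 0.47 (adjusted p = 0.000251), and Col2a1 made up 1.71 to 2.52% of a growth plate library's total. Col11a2, a chain of the type XI collagen that nucleates fibrils, was higher by 3.76 ± 0.25 (adjusted p = 5.4e-05).

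Matn3 (chr12:8947929-8972028, plus strand), a matrilin that links collagen fibrils to proteoglycans, was listed at 1 in all 3 articular libraries and at 853, 581 and 555 in growth plate (adjusted p = 0.000316). Epyc, a small leucine-rich proteoglycan of growth cartilage, was likewise at 1 in every articular library and at 140.1, 85.8 and 86.0 in growth plate (adjusted p = 0.000155). Lect1, which encodes the antiangiogenic protein chondromodulin, had 35.1, 22.1 and 38.3 in articular cartilage and 1797, 1392 and 1549.5 in growth plate. For these 3 genes the tissues did not overlap. Matn1, another matrilin, reached 34.1, 40.7 and 68.2 in growth plate from at most 2.80 in articular cartilage.

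Some other cartilage genes were not called. Acan, the gene of aggrecan, had 2599, 2225 and 1038 in articular cartilage and 2887, 1694 and 1796 in growth plate. The Acan values overlapped, with a difference of 0.18 ± 0.61 and a 95% interval from -1.23 to 1.595. Comp, which encodes a matrix thrombospondin, was at 1318, 1129 and 990.2 against 2723, 1791 and 1698. All 3 growth plate values lay above the articular ones, but the difference of 0.83 ± 0.48 missed the threshold (adjusted p = 0.318). The calls of Col11a1, Col27a1, Hapln1 and Pcolce2 were lost whichever pair was left out, those of Col9a2 and Mia1 without the double-floxed pair and that of Fmod without the day 7 or the day 14 pair. The count of matrix genes called higher was 10 without the day 7 growth plate library or either double-floxed library.

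Over all 35 collagen genes listed, 14 were higher and 3 lower in growth plate. The lower count is near the share of 8.63% over all genes. The 3 that were lower were Col3a1 and Col14a1, collagens of fibrous tissue, and Col15a1 of basement membrane zones. The bone collagen chains Col1a1 and Col1a2 were higher by 1.55 ± 0.26 and 1.48 ± 0.27, and Col1a1 was high in both tissues, at 729, 2091 and 2301 in articular cartilage and 2171, 6678 and 6061 in growth plate. Its groups overlapped, because the day 7 growth plate lay below the double-floxed articular library. Among matrix thrombospondins, Thbs3 and Thbs1 were higher and Thbs4 and Thbs2 lower, so the family was divided. The call of Col3a1 was lost without the double-floxed pair, that of Col15a1 without the day 14 or the double-floxed pair and that of Col1a2 without either Sox9fl/fl pair.

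Upstream sequence is printed for 2 genes of the growth plate side and 2 of the articular side, chosen as examples of genes far apart. Each window holds the 250 bases upstream of the first start site given by RefSeq (GRCm38.p6), and all 4 genes are on the plus strand. Panx3 and Clu were also chosen but had no promoter entry. The Barx1 window runs past the GENCODE start of that gene, 48662998. Capitals mark matches on either strand to any of 6 short motifs that were searched: ACAANG for SOX factors, TGTGGT for RUNX factors, TGANTCA for AP-1, ACGTG for the hypoxia response, TGTTTAC for FOXA factors and TATAAA for the TATA box. No other match was found in these windows.
Col9a1, chr1:24177360-24177609, a SOX match: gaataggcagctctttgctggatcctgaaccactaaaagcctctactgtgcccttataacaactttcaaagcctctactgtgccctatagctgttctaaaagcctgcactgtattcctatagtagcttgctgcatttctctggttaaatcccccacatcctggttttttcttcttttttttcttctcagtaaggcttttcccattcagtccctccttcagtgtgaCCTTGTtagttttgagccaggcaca
Matn3, chr12:8947679-8947928, a SOX match: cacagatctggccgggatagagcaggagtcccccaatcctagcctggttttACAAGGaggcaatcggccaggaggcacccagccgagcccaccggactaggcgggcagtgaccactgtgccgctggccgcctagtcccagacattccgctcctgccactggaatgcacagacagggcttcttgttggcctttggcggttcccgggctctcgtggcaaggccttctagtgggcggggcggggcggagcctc
Cilp, chr9:65264930-65265179, a RUNX match: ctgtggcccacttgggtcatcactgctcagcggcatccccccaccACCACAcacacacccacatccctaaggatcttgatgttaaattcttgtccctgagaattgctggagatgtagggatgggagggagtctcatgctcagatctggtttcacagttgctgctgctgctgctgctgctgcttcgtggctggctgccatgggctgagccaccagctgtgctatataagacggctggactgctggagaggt
Barx1, chr13:48662786-48663035, no match: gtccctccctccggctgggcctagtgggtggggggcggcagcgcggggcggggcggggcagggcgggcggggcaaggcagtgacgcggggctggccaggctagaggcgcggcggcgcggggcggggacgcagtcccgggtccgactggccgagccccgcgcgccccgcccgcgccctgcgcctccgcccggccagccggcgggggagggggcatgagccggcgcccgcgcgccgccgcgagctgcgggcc

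Such matches were common everywhere. Of 8521 listed genes with a promoter in the RefSeq table, 29.1% held the SOX letters, against 28.6% of the 381 with a call higher in growth plate and 27.6% of the 879 with a call lower. The RUNX letters were in 10.4% of all these promoters and in 9.45% and 9.56% of those called higher and lower. The hypoxia letters were in 21.9%, and in 23.9% and 19.1% of the same groups. A match is a description of the letters and not a site of binding.

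The small leucine-rich proteoglycans, which coat collagen fibrils, were also divided. Of 14 listed, 4 were higher and 3 lower in growth plate. Dcn, decorin, was at 1291, 1662 and 773 in articular cartilage and 70.9, 145 and 121 in growth plate, while the related Bgn, biglycan, was at 282, 274 and 429.9 against 730.3, 832 and 843. Neither overlapped, and the pair of closely related genes had opposite orders. Chadl, a chondroadherin-like protein, was at 15.97, 9.91 and 8.93 against 91.2, 69.6 and 109.

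Genes that build and sulfate cartilage proteoglycans were divided. Of 30 genes of glycosaminoglycan synthesis, 7 were higher and 4 lower, with a median of 0.24. The sulfate supply was on the growth plate side: Slc26a2, the sulfate transporter of chondrocytes, had 12.3, 11.8 and 10.7 in articular cartilage and 67.0, 37.4 and 51.9 in growth plate. Papss2, which makes the activated sulfate donor, had 49.7, 51.6 and 50.1 against 257, 204 and 286. Both genes had no overlap between tissues, with differences of 2.04 ± 0.20 and 2.27 ± 0.23. Chst11, the main chondroitin 4-sulfotransferase of cartilage, was higher by 1.98 ± 0.28, whereas Chst3, a chondroitin 6-sulfotransferase, had a log2 difference of -2.88 ± 0.22. Csgalnact2, which starts chondroitin chains, also differed toward articular cartilage, by -3.18 ± 0.29. The 4 calls on the articular side became 2 whichever pair was left out.

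Of 40 genes of collagen processing and the secretory pathway, 14 were higher and 3 lower in growth plate. The lower calls were 7.5% of the list, near the 8.63% over all genes. Serpinh1, the collagen chaperone HSP47, was at 60.2, 60.5 and 173 in articular cartilage and 734, 398 and 609 in growth plate, without overlap. Lepre1, a prolyl 3-hydroxylase of collagen, was higher by 1.98 ± 0.20. The crosslinking lysyl oxidases took opposite sides: Loxl4, Loxl3 and Loxl2 were higher by 2.74 ± 0.18, 2.12 ± 0.20 and 1.55 ± 0.22, and Lox itself differed by -2.04 ± 0.33. The collagen hydroxylases Leprel1 and P4ha2 were also on the articular side, at -2.45 ± 0.23 and -1.29 ± 0.22. Without the day 7 pair, and with the 6 control libraries alone, 8 of the 14 higher calls were counted.

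**Figure D2:**
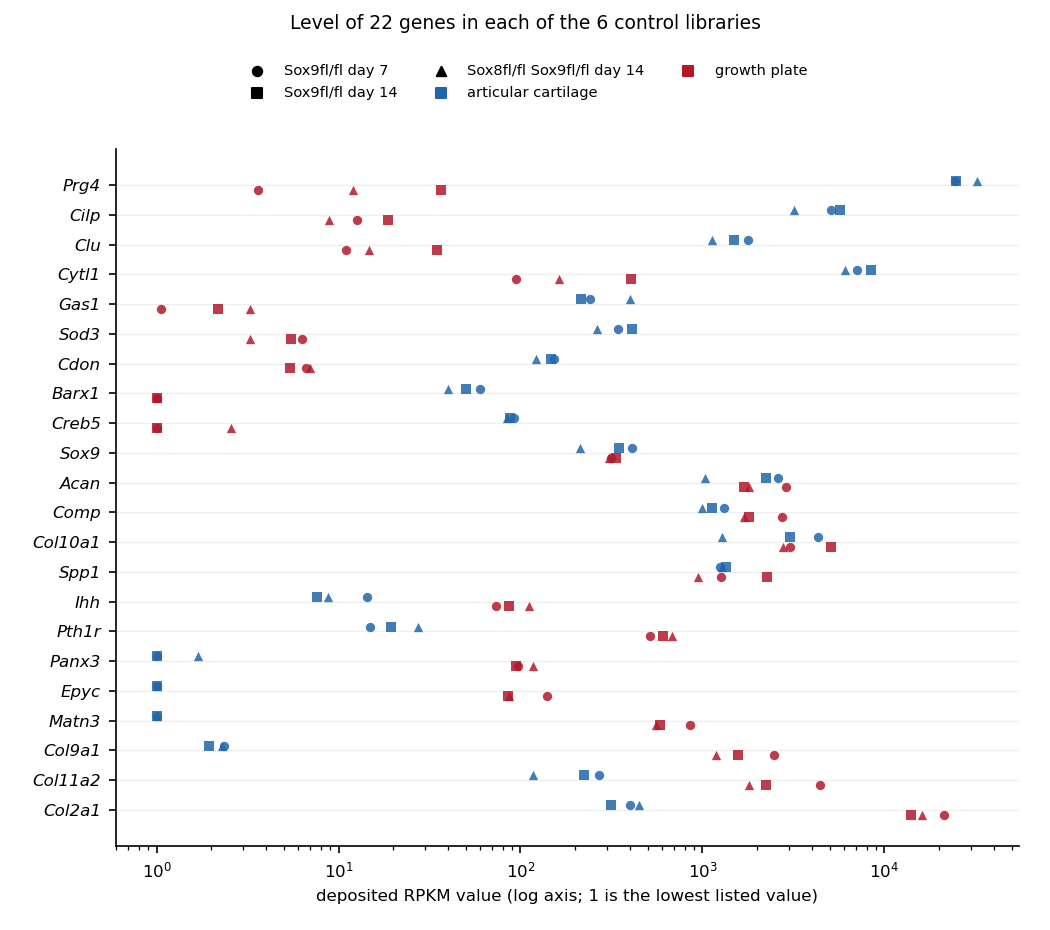
Deposited RPKM value (log axis) of 22 genes in each of the 6 control libraries; blue symbols are articular cartilage, red symbols growth plate, and the symbol shape gives the pair. The 9 genes from Prg4 to Creb5 have every growth plate value below every articular value, those from Ihh to Col2a1 have every growth plate value above, and Sox9, Acan, Col10a1 and Spp1 overlap.

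On the articular side, the genes of the joint surface led. Of 23 genes of articular cartilage and its superficial zone, 14 were lower in growth plate and 1, Pla2g5, a secreted phospholipase, was higher, with a median of -2.71. Prg4 (chr1:150449412-150466165, minus strand) had the largest difference of any gene named, -11.01 ± 0.69 (adjusted p = 0.000128), and 3.67 to 6.25% of an articular library's total. Cilp (chr9:65265180-65280605, plus strand), which encodes cartilage intermediate layer protein, was at 5069, 5683 and 3195 in articular cartilage and 12.7, 18.7 and 8.88 in growth plate. The tissues were separated by -8.35 ± 0.85 (adjusted p = 0.00103). Clu, the secreted chaperone clusterin, had 1768, 1489.8 and 1124 against 10.9, 34.7 and 14.8, a difference of -6.25 ± 0.33. Every growth plate was far below every articular library for Prg4, Cilp and Clu, and the day 14 growth plate held the highest growth plate value of each.

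Other genes had the same order. Cytl1, a small secreted protein of chondrocytes, had 7048, 8432 and 6088 in articular cartilage and 94.2, 405 and 163 in growth plate. It was the only member of the list of 24 matrix genes called on the articular side. Sod3, the extracellular superoxide dismutase, had 342, 408 and 262 against 6.31, 5.51 and 3.28. 1500015O10Rik, also known as Ecrg4, had 2272, 2498 and 1264 against 87.02, 107 and 103. None of these 3 genes overlapped between tissues. Abi3bp, a matrix protein, and Chrdl2, a BMP antagonist, were lower by log2 differences of -4.88 ± 0.29 and -5.57 ± 0.47. Tnxb, tenascin-X, and Htra4, a secreted protease, were at 1 in all 3 growth plates, and in articular cartilage at 57.1, 37.8 and 87.6 and at 69.2, 90.1 and 196. Sbsn, Galntl2 and Serpina3n were each at most 1.40 in growth plate and at least 52.4 in every articular library. They were among the 12 lowest genes taken by the rule for named genes. Those 12 also include Gas1 and Igfbp6, but not 1500015O10Rik, Abi3bp or Tnxb.

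Not every gene known from articular cartilage passed. Chad, chondroadherin, was at 5815, 5799 and 4439 in articular cartilage and at 1180.1, 2877 and 2350.2 in growth plate, without overlap but with an adjusted p of 0.0854. Clec3a, a cartilage lectin, had an adjusted p of 0.057 with all 3 growth plates lower, and was called in 5 of 12 alternatives. Gdf5, a joint-forming growth factor, was at most 3.12 in every library.

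Fibrous and lining tissue borders the joint surface, and some of its markers had the order of the surface genes. Among 23 fibroblast and tendon genes, 5 were lower in growth plate and 4 higher, and their summed values, led by Col1a1 and Col1a2, were 3226 to 5949 in articular cartilage and 5362 to 10593 in growth plate. Without the day 7 or the day 14 pair 1 of the 4 higher calls was counted. Dpt, a matrix protein of skin and tendon, was at 22.7, 6.67 and 39.0 in articular cartilage and at 1 in all growth plates. Col3a1 was at 299, 91.8 and 559 against 6.72, 25.3 and 32.9, highest in the double-floxed articular library. Of 12 genes of synovial lining, 4 were lower and 0 higher. The 4 were Prg4, Htra4, Hbegf and Clic5, of which Prg4 and Htra4 are already described above. The fibroblast marker Pi16 was at 3.55 in the double-floxed articular library and at most 1.12 elsewhere. The part of such tissue in the articular result was not tested. In bulk samples, fewer cells of a type and less RNA per cell cannot be told apart.

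Transcription factors split along the same line. Of 18 chondrocyte transcription factor genes, 3 were higher and 6 lower in growth plate, with a median of -0.26. Sox9 was at 408, 349 and 213 in articular cartilage and at 314, 335 and 308 in growth plate. The groups overlapped, with a difference of 0.03 ± 0.44 and a 95% interval from -0.97 to 1.03. Sox5, Sox6 and Sox8, which act with or beside Sox9, also overlapped, at -0.34 ± 0.38, -0.18 ± 0.34 and 0.48 ± 0.47. Of 8 Sox genes listed, Sox12 alone was called.

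Barx1 (chr13:48662998-48666507, plus strand), a homeobox gene of joint and jaw mesenchyme, was at 59.7, 50.01 and 40.04 in articular cartilage and at 1 in all 3 growth plates (adjusted p = 5.4e-06). Creb5, a factor known to drive Prg4 in articular chondrocytes, was at 92.3, 87.7 and 84.5 against 1, 1 and 2.56. Erg, an ETS factor of joint cartilage, was at 29.6, 25.8 and 18.4 against 1.72, 1.95 and 3.24. All 3 were separated between tissues, Creb5 by -5.20 ± 0.25 and Erg by -2.96 ± 0.30. In the other direction, Nkx3-2, a repressor that holds chondrocytes immature, was at 1.62, 1 and 1.02 in articular cartilage and 27.0, 21.9 and 26.8 in growth plate, higher by 3.57 ± 0.38. The Runx family was divided: Runx1 differed by -1.50 ± 0.20, while Runx2, which drives hypertrophy and bone formation, and Runx3 were higher by 1.80 ± 0.18 and 3.70 ± 0.41. The calls of Foxa2 and Mef2c, both linked to hypertrophy, were lost without the day 14 or the double-floxed pair, that of Mef2c also without the day 7 pair, and that of Nfatc2 without the day 7 or the day 14 pair. Of the 3 factors called on the growth plate side, 1 was called without the day 14 or double-floxed pair, and with the 6 control libraries alone.

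Of 19 genes of prehypertrophic and hypertrophic cells, 12 were higher in growth plate, 3 lower and 4 not called, with a median of 1.80. Panx3, a channel of prehypertrophic and hypertrophic chondrocytes, was at 1, 1 and 1.68 in articular cartilage and 96.5, 94.96 and 118 in growth plate. The difference of 5.55 ± 0.17 had the smallest adjusted p of any gene named higher (2.8e-06). Cdkn1c, the CDK inhibitor p57 of cells leaving the cycle, was at 15.6, 13.1 and 15.1 against 126, 106 and 159, and was higher by 3.06 ± 0.17. Clec11a, an osteogenic growth factor, was higher by 3.48 ± 0.54. The 3 lower genes were Scin, an actin-severing protein, and the pyrophosphate regulators Ank and Enpp1, and 1 of them was called without the day 7 pair.

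Col10a1, the collagen used as the marker of hypertrophic and calcified cartilage, did not follow them. It was at 4329, 3045 and 1284 in articular cartilage and 3026, 5111 and 2774 in growth plate. The day 7 articular library exceeded 2 of the 3 growth plates, and the difference was 0.45 ± 0.37 with a 95% interval from -0.40 to 1.29. Spp1, osteopontin, likewise overlapped, at 1253, 1348 and 1283 against 1271, 2250.0 and 941. Vegfa, the vessel growth factor of hypertrophic cells, was at 34.1 to 56.3 and 52.6 to 67.9. For these 3 genes the tissues overlapped.

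Genes that control mineralisation lay on both sides. Phospho1, a phosphatase of matrix vesicles, was at 7.52, 13.1 and 9.73 in articular cartilage and 139, 126 and 91.5 in growth plate. Smpd3, a sphingomyelinase needed for mineralisation, was at 21.6, 22.9 and 27.3 against 305, 257 and 352. With Alpl, tissue-nonspecific alkaline phosphatase, these made 3 of 11 mineralisation genes that were higher, by 3.44 ± 0.28, 3.61 ± 0.21 and 2.10 ± 0.21. Lower in growth plate were 4: the pyrophosphate suppliers Ank and Enpp1, at -1.43 ± 0.25 and -1.19 ± 0.27, the adenosine-producing Nt5e at -2.32 ± 0.37 and the phosphate carrier Slc20a1 at -3.15 ± 0.32. Without the day 7 pair the calls of Ank and Enpp1 were lost, and that of Enpp1 also without the double-floxed pair.

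Bone genes were present in both tissues. Of 24 osteoblast and osteocyte genes, 10 were higher and 2 lower in growth plate, with a median of 0.51 and summed values of 3532 to 6179 in articular cartilage and 8201 to 15920 in growth plate. Ibsp, bone sialoprotein, was at 341, 579 and 842 in articular cartilage and 3089, 3530.4 and 2455 in growth plate, without overlap. The osteocyte gene Dmp1 overlapped, at 229.9, 204 and 106 against 93.98, 260.1 and 222, and Bglap, osteocalcin, was at 53.6 to 171 and 49.4 to 377. Sost, the Wnt inhibitor sclerostin of osteocytes, had the opposite order, at 183, 206 and 215 in articular cartilage against 16.2, 25.2 and 46.3. The other lower gene, Omd, was not called when any pair was left out. RNA of genes known from bone was thus measured in every library. Whether it came from bone or from cartilage cells was not tested. The part of bone in the calls of shared genes such as Alpl, Runx2 and Sp7 was not tested either.

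Markers known from resting and columnar growth plate cells gave no common side. Of 18 listed, 5 were higher and 6 lower in growth plate, with a median of 0.05. The 6 lower ones were Prg4, Gas1, Sfrp5, Nt5e, Prrx1 and Fzd8, of which Prg4 and Sfrp5 are also described here with the joint surface and Wnt genes. Gdf10, a BMP-family ligand, was at 7.32, 19.1 and 16.7 in articular cartilage and 86.1, 65.3 and 79.8 in growth plate, without overlap. Its call was lost without the day 7 or the double-floxed pair, and 3 of the 5 higher calls were counted whichever pair was left out.

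Signalling genes of the hedgehog and PTHrP loop lay on both sides. Pth1r, the receptor, was at 14.98, 19.3 and 27.3 in articular cartilage and 512, 604 and 679 in growth plate, a difference of 4.83 ± 0.26 (adjusted p = 2.2e-05). Ihh, the hedgehog ligand, was at 14.4, 7.59 and 8.73 against 72.9, 86.1 and 111. The Ihh difference of 3.04 ± 0.68 was called with all pairs (adjusted p = 0.0279), although the call was lost whichever pair was left out. Pthlh, the gene of PTHrP, had the opposite order, at 9.69, 9.70 and 8.71 against 2.99, 3.36 and 4.61, with no overlap and an adjusted p of 0.0559.

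The cell surface co-receptors that bind hedgehog were on the articular side. Gas1 (chr13:60174405-60177365, minus strand) was at 241, 215 and 400.3 in articular cartilage and at 1.06, 2.19 and 3.28 in growth plate, a difference of -6.50 ± 0.23 (adjusted p = 4.3e-06). Cdon was at 152, 146 and 122 against 6.64, 5.44 and 6.93, a difference of -4.27 ± 0.17. Boc, the third of these co-receptors, was lower by -1.57 ± 0.35, a call lost without the day 7 or the double-floxed pair. The hedgehog target Ptch1 was at 52.1, 40.6 and 36.9 against 78.1, 129 and 114 (adjusted p = 0.0568), and Hhip, a target that binds the ligand, was also above in every growth plate (adjusted p = 0.104). Gli1, the usual readout of the pathway, overlapped at 9.07 to 13.7 and 8.05 to 10.9. In all, 2 of 13 pathway genes were higher and 3 lower, with a median of -0.27, and 1 was higher whichever pair was left out.

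Genes of the Wnt pathway lay on both sides. Of 30 Wnt pathway genes, 6 were higher and 10 lower in growth plate, with a median of -0.41. Wif1, which binds Wnt proteins, was at 313, 314 and 178 in articular cartilage and 22.01, 60.4 and 35.5 in growth plate. Sfrp5, a decoy of the frizzled family, was at 138, 84.1 and 111 against 16.9, 21.4 and 20.6. Together with Sost, Dkk3, Sfrp4 and Frzb, all secreted inhibitors, they were lower by log2 differences from -2.87 to -1.76. Notum, a secreted enzyme that inactivates Wnt proteins, had the opposite order, at 1.36, 1 and 3.60 against 13.1, 13.9 and 9.56, a call lost without the day 7 or the day 14 pair. Frzb was called with all pairs and not with the 6 control libraries alone, and Dkk3 was lost without the day 7 pair.

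Of the 7 Wnt ligands among these 30 genes, 2 were higher and 1 lower. The higher ones were Wnt4, at 2.76, 5.45 and 3.32 in articular cartilage and 22.2, 20.9 and 17.4 in growth plate, and Wnt5b, at 2.50, 3.08 and 4.04 against 14.4, 13.1 and 23.8. The lower one, Wnt16, was at 4.28, 3.33 and 2.27 against 1 in every growth plate, with an adjusted p of 0.0499 that missed the threshold whichever pair was left out. Rspo3, a secreted enhancer of Wnt signalling, was at 1, 1.53 and 1 against 26.7, 14.4 and 26.0, and its relative Rspo4 at 2.73, 1.79 and 1.56 against 125, 75.2 and 79.8. Wnt4, Wnt5b, Rspo3 and Rspo4 were above the articular level in every growth plate. Tcf7, a transcription factor of the pathway, was higher by 1.88 ± 0.23, while Axin2, a general target, differed by -0.07 ± 0.26. Without the day 7 pair 6 of the 10 lower calls were counted, and 4 with the 6 control libraries alone.

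**Figure D3:**
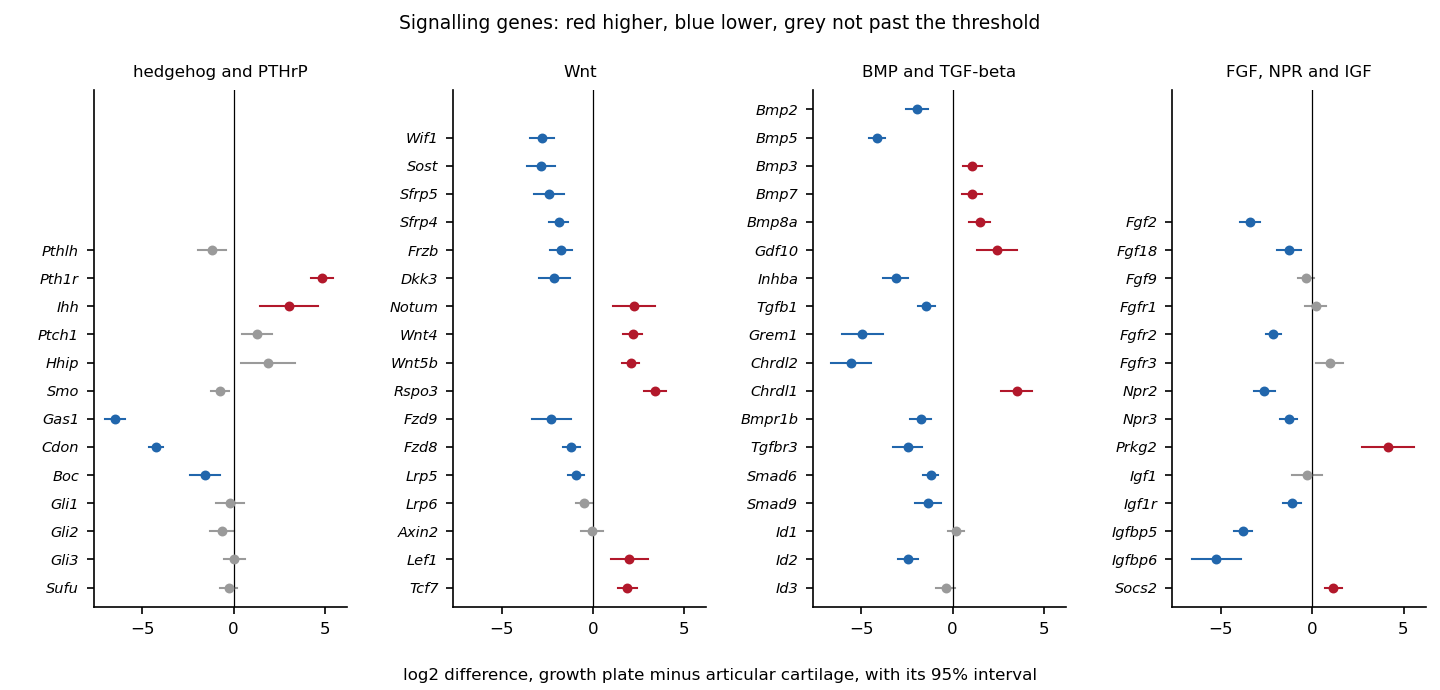
Difference in log2(RPKM value + 1), growth plate minus articular cartilage, with its 95% interval from limma, for genes of 4 signalling systems; red genes were called higher, blue lower, grey not called. The hedgehog co-receptors Gas1 and Cdon and the Wnt inhibitors Wif1, Sost and Sfrp5 lie left of 0, Pth1r, the Wnt ligands Wnt4 and Wnt5b and the Wnt inhibitor Notum right of 0, and Gli1 near 0.

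Among BMP and TGF-beta genes, more calls were on the articular side than on that of the growth plate. Of 38 listed, 15 were lower, 6 higher and 17 not called, with a median of -0.45. Among ligands, Bmp5 was at 57.5, 68.6 and 56.4 in articular cartilage and 2.16, 3.12 and 2.23 in growth plate, and Inhba, the activin subunit, at 25.8, 60.5 and 73.2 against 3.87, 5.66 and 4.69. Neither overlapped, and they differed by -4.15 ± 0.20 and -3.12 ± 0.30. The BMP antagonist Grem1 was at 83.6, 30.6 and 86.7 in articular cartilage and at 1 in every growth plate, whereas the antagonist Chrdl1 was at 1.09, 1.10 and 1.25 against 19.99, 23.9 and 26.5. Chrdl2 and Chrdl1, related antagonists, thus had opposite sides. The BMP target Id2 was at 55.7, 71.4 and 58.5 against 11.8, 8.55 and 11.4, while the targets Id1 and Id3 differed by 0.18 ± 0.20 and -0.39 ± 0.22 without a call. Tgfb1 was lower by -1.44 ± 0.20. The 6 higher calls became 3 without the day 7 or the double-floxed pair, and with the 6 control libraries alone, while 13 lower calls were counted whichever pair was left out.

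In the FGF, natriuretic peptide and IGF systems, 10 of 22 genes were lower and 2 higher, with a median of -0.66. Fgf2 was at 27.9, 24.8 and 14.8 in articular cartilage and at 1, 1.46 and 1.02 in growth plate. Fgfr2 was lower by -2.14 ± 0.18, while Fgfr3, the receptor that restrains growth plate chondrocytes, was at 64.8, 46.5 and 16.2 against 102, 56.3 and 64.8, which overlapped. Npr2, the receptor for C-type natriuretic peptide, was at 110.0, 87.9 and 51.1 against 9.65, 15.4 and 11.2. Prkg2, the kinase that acts downstream of this receptor in chondrocytes, had the opposite order, at 4.79, 3.32 and 3.19 against 60.6, 91.9 and 101. Receptor and kinase were each separated between tissues, by -2.64 ± 0.25 and 4.15 ± 0.61. The IGF-binding proteins Igfbp6 and Igfbp5 had differences of -5.26 ± 0.58 and -3.80 ± 0.22. Without the day 14 pair, and with the 6 control libraries alone, 6 of the 10 lower calls were counted.

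Of 28 glycolysis and hypoxia genes, 16 were lower in growth plate, 2 higher and 10 not called, with a median of -0.98. Egln3, an oxygen-sensing hydroxylase that is itself induced by hypoxia, was at 26.2, 25.3 and 18.3 in articular cartilage and at 1 in every growth plate. Slc2a1, the glucose transporter GLUT1, was at 95.6, 85.1 and 51.8 against 30.7, 13.1 and 15.3, and Aldoa, aldolase A, at 151, 141 and 173 against 63.3, 39.4 and 68.2. Ndrg1 and Bnip3, both hypoxia-induced, differed by -2.45 ± 0.25 and -2.40 ± 0.29. Every growth plate was below every articular library for these 5 genes. Car12, a carbonic anhydrase, had the opposite order, at 1 in every articular library and at 71.6, 30.7 and 46.5 in growth plate. The day 14 growth plate was the lowest for Slc2a1, Aldoa and Gapdh. The count of lower calls was 6 without the day 14 pair, 8 without the double-floxed pair and 7 with the 6 control libraries alone. In the respiratory chain, 0 of 30 nuclear-encoded genes were called by limma, with a median of 0.18.

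Of 12 inducible heat shock genes, 6 were lower, 0 higher and 6 not called, with a median of -0.92. The small heat shock protein gene Hspb1 was at 63.1, 50.5 and 31.1 in articular cartilage and 2.72, 3.82 and 1.28 in growth plate, a difference of -3.78 ± 0.22. Hspa1b, an inducible HSP70, was at 32.7, 35.6 and 26.6 against 1.67, 1.40 and 3.26, and its near-identical copy Hspa1a may share its reads. The constitutive chaperones Hspd1 and Hspe1 were not called, at 0.32 ± 0.27 and 0.26 ± 0.27. Whichever pair was left out, 5 or 6 of the 6 calls were counted.

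Of 19 antioxidant and metal handling genes, 6 were lower, 0 higher and 13 not called, with a median of -0.27, led by Sod3. Gpx1, a cytosolic glutathione peroxidase, was at 145, 222 and 189 in articular cartilage and 79.4, 80.98 and 71.4 in growth plate, without overlap. Gpx3, the extracellular form, was high in both tissues, at 766, 720.5 and 926 against 355, 636 and 677. Without the day 14 or the double-floxed pair 3 of the 6 calls were counted, and Gpx1 was not among them.

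Of 23 genes of lipid handling, 9 were higher in growth plate, 2 lower and 12 not called, with a median of 0.74. Fads2, a desaturase that makes long polyunsaturated fatty acids, was at 2.37, 2.60 and 5.07 in articular cartilage and 110.2, 33.5 and 78.7 in growth plate. Scd2, a stearoyl-CoA desaturase, was at 61.1, 46.2 and 34.99 against 262, 111 and 125. Both were above every articular library, by 4.01 ± 0.30 and 1.71 ± 0.26, and the day 7 growth plate was the highest for each. Fads1 was higher by 2.16 ± 0.30, and the cholesterol synthesis genes Hmgcs1 and Sqle by 0.74 ± 0.19 and 1.09 ± 0.25. Hmgcs1 was not called when any pair was left out, and Sqle was not called without the day 7 or the double-floxed pair. The count of 9 was 3 without the day 7 pair, 5 or 6 without a day 14 library, 5 without the double-floxed pair and 2 with the 6 control libraries alone.

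**Figure D4:**
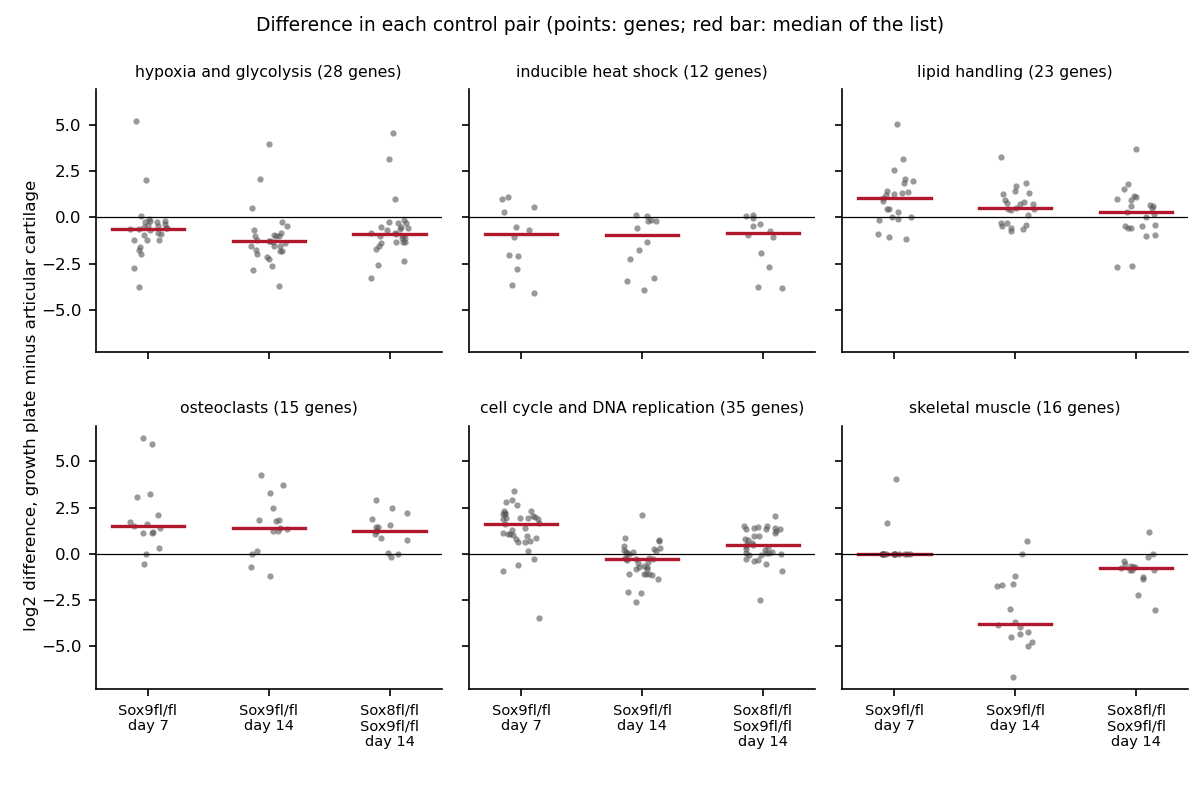
Difference in log2(RPKM value + 1), growth plate minus articular cartilage, of every member of 6 gene lists in each of the 3 control pairs; points are genes and red bars are medians. Hypoxia and heat shock medians lie below 0 and osteoclast medians above 0 in all 3 pairs, whereas the cell cycle and muscle medians differ from pair to pair.

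The enzymes that break down cartilage were divided. Of 22 matrix proteases and their inhibitors, 8 had higher and 5 lower values in growth plate. Mmp9, a gelatinase of the erosion front, was at 5.19, 33.2 and 61.3 in articular cartilage and 479.6, 654 and 463 in growth plate. Mmp13, the collagenase of hypertrophic cells, was at 23.0, 37.9 and 175 against 229.7, 492 and 253. Neither overlapped, and the call of Mmp13 was lost without the day 7 or the day 14 pair. Mmp3, stromelysin 1, had the opposite order, at 9.17, 15.3 and 21.03 in articular cartilage and at 1 in every growth plate, and the inhibitor Timp3 differed by -1.93 ± 0.36, a call lost without the day 7 pair. Without the day 7 or the day 14 pair, and with the 6 control libraries alone, 3 of the 8 higher calls were counted, and 3 of the 5 lower calls without the day 7 or the double-floxed pair.

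Of 15 osteoclast markers, 11 were higher and 0 lower, with a median of 1.66 and summed values of 90.5 to 348 in articular cartilage and 1164 to 1551 in growth plate. Acp5, the osteoclast phosphatase TRAP, was at 4.09, 31.7 and 102 in articular cartilage and 315, 434 and 576 in growth plate. Ctsk, cathepsin K, was at 29.8, 30.2 and 92.4 against 254, 303 and 219, a call lost without the day 7 or the day 14 pair. All growth plates were above all articular libraries for both, while Calcr, the calcitonin receptor gene, was at 1 in every library. The count of 11 was 7 without the day 7 pair, 6 without the day 14 pair and 5 with the 6 control libraries alone. Fewer of the vessel markers were called: of 14 endothelial genes, 5 were higher, 1 lower and 8 not called. Their summed values overlapped, at 37.7 to 92.3 in articular cartilage and 86.5 to 115 in growth plate. Without the day 7 or the day 14 pair, and with the 6 control libraries alone, 0 were called higher. Pecam1 was not called and overlapped, at 1.70, 3.94 and 14.9 against 7.81, 8.26 and 10.2. The part of osteoclasts and vessel cells in the calls of Mmp9, Ctsk and other shared genes was not tested.

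Of 19 limb patterning genes, 9 were lower in growth plate, 0 higher and 10 not called, with a median of -0.80, although 2 were called higher under each of the quantile and median ratio scalings. Hoxd9 was at 16.2, 9.62 and 10.9 in articular cartilage and at 1 in every growth plate, and Hoxd8 at 14.1, 12.2 and 13.3 against 6.18, 3.17 and 2.84. Among the 18 Hox genes listed, the called members, all lower, were Hoxa11, Hoxa13, Hoxd8, Hoxd9 and Hoxd10. Pitx1 and Tbx4, which specify the hindlimb, were at 25.5 to 33.8 against 10.2 to 15.5 and at 4.11 to 5.71 against 1. The calls of Hoxa13, Hoxd10 and Pitx1 were lost whichever pair was left out, that of Hoxa11 without either Sox9fl/fl pair and that of Tbx4 without the day 7 or the double-floxed pair. Without the day 7 pair 3 of the 9 calls were counted, and 4 without either of the others.

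Cell cycle genes gave no common result. Of 35 listed, 3 were higher and 1 lower, and the median of the pairs was 1.59 at day 7, -0.28 at day 14 and 0.46 in the double-floxed pair. Mki67, the proliferation marker, was at 1.48, 19.8 and 7.96 in articular cartilage and 25.2, 8.47 and 18.6 in growth plate, so the order was turned in the day 14 pair. Without the day 14 pair 12 genes were called higher, and 1 without the day 7 or the double-floxed pair. The D-type cyclins, which act at the entry to the cycle, were steady instead: Ccnd1 was at 2.64, 3.50 and 3.49 against 17.2, 18.5 and 17.73, and Ccnd2 at 34.0, 25.6 and 30.8 against 2.21, 3.45 and 4.72. They had opposite sides, at 2.17 ± 0.24 and -2.83 ± 0.26.

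**Figure D5:**
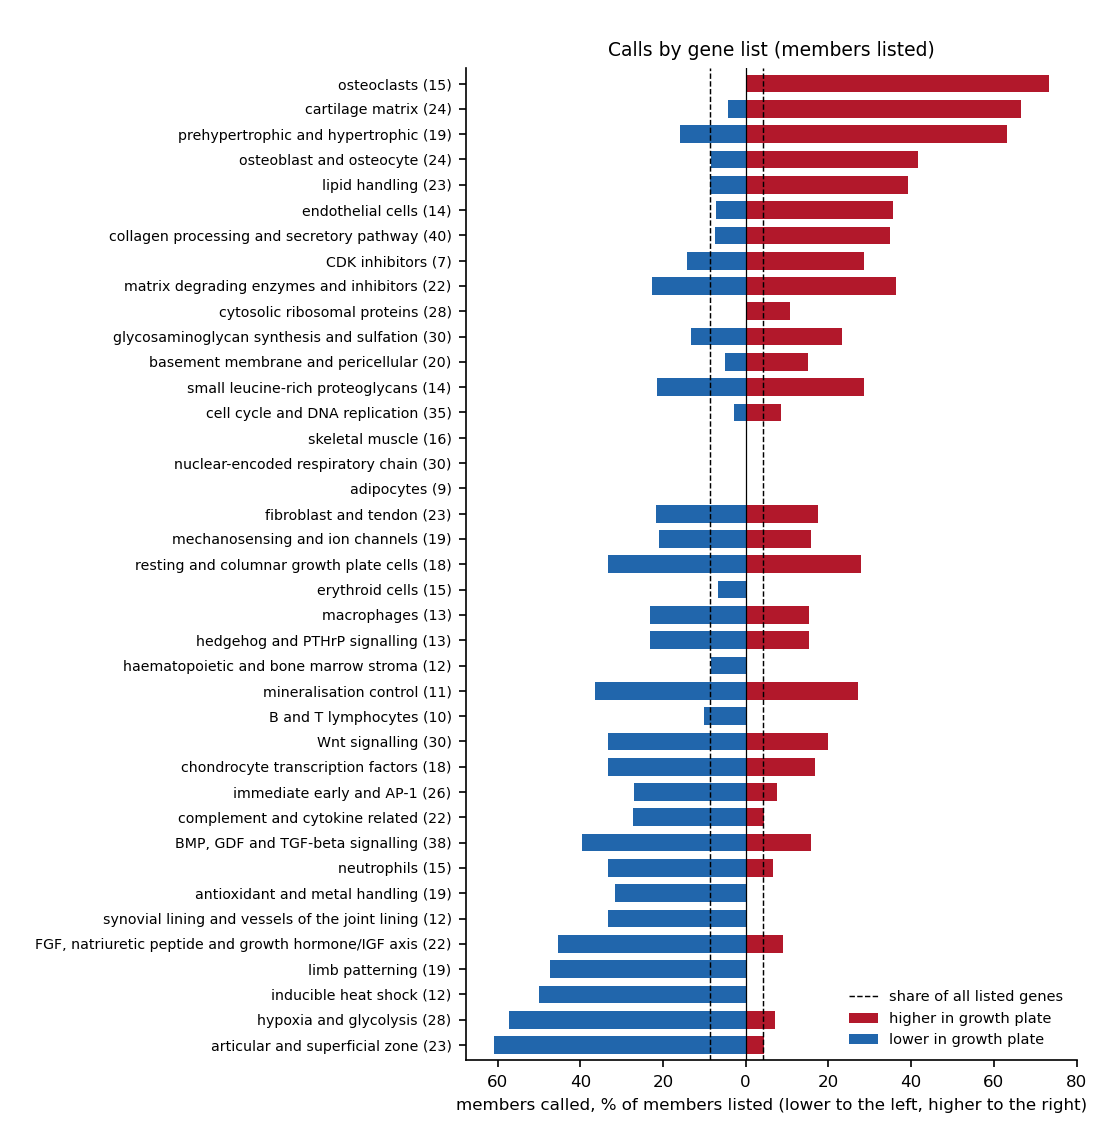
Share of the listed members of each of 39 gene lists called higher (red, to the right) or lower (blue, to the left) in growth plate; numbers in parentheses are the members listed and dashed lines the shares over all 14712 genes (4.26% and 8.63%). Osteoclast, cartilage matrix and hypertrophic lists have the longest red bars, articular, hypoxia and heat shock lists the longest blue bars.

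RNA of genes known from blood, marrow and muscle was measured in varying amounts. Of 16 skeletal muscle genes 0 were called in either direction, and their sum ran from 20.2 to 733 in articular cartilage and from 98.5 to 493 in growth plate. Acta1, skeletal actin, was at 1, 86.1 and 137 against 1, 2.23 and 86.0, so it was listed at 1 in both libraries of the day 7 pair. Of 15 erythroid genes 1 was lower, and the globin gene Hbb-b1 was at 60.7 in the day 14 articular library and at 10.2 to 19.1 elsewhere. Among 15 neutrophil genes 5 were lower and 1, Mmp9, higher, with sums of 121 to 1234 in articular cartilage and 530 to 698 in growth plate, the latter mostly Mmp9. S100a8 was at 18.5, 192 and 47.3 against 12.8, 5.28 and 8.17. The 5 lower neutrophil calls became 1 without the day 14 or the double-floxed pair. Their part in the articular result was not tested. Macrophage genes were split, 2 higher and 3 lower of 13, and the higher ones, Cd68 and Csf1r, were not called when any pair was left out. Among 9 adipocyte genes limma called 0, among 10 lymphocyte genes 1 lower (Ebf1) and among 12 marrow genes 1 lower (Pf4). The lower calls were 6.67% of erythroid, 10% of lymphocyte and 8.33% of marrow genes, near the 8.63% over all genes. Lower calls were also near this share in the lipid handling (8.70%), osteoblast and osteocyte (8.33%), collagen processing (7.5%) and endothelial (7.14%) lists. Counts so near the share over all genes say nothing particular about those cells or lists.

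Some abundant genes scarcely differed. Actb, the cytoskeletal actin often used as a reference, was at 287, 412 and 471 in articular cartilage and 398, 382 and 363 in growth plate. B2m, the light chain of the class I molecules that present antigen, was at 98.1, 172 and 180.4 against 86.5, 181 and 198. With the predicted gene Gm20721 and 1 of several listed copies of the small RNA gene 7SK, these had the smallest differences of all genes with a mean of at least 100. Gapdh, another reference gene, had a difference of -1.18 ± 0.25, a call lost without the day 14 or the double-floxed pair and with the 6 control libraries alone.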

How the data were processed

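Per the labels' protocols, cartilage was captured by laser from frozen knee sections and its total RNA made into stranded libraries suited to low input. The authors deposited 1 table of RPKM values, named NRPKM per the file headers; how they were normalised further, aligned, counted and annotated was not given in the sources used here. Per the submitters' processing notes, mm10 was the build. No value lies below 1, and 1809 to 2823 genes per control library equal 1. Depth is unknown, so no counting interval is given.

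Of 14712 genes, 14293 had coordinates in GENCODE M21; symbols are those of the file, and overlapping or near-identical genes are uncertain. On the log2(value + 1) scale, all 12 libraries were fitted with limma 3.58.1 (statmod 1.5.0, R 4.3.3; robust empirical Bayes with a mean trend). Blocks were 6 pairs of floxed alleles, Cre and day. The tissue difference rests on the 3 control pairs; the 3 pairs with AcanCreER add only to the estimate of spread, which leaves 4 residual degrees of freedom (2 with the 6 control libraries alone). P-values are two-sided and adjusted by Benjamini-Hochberg over all genes. An exact permutation test of 3 against 3 cannot go below 0.1. Each genotype and day has 1 library per tissue, so the 3 libraries of a tissue are not repeats of 1 condition, and p-values measure the spread between pairs. Pairing comes from alleles and day: deviations from the tissue mean correlated at 0.176, 0.105 and 0.415 within pairs and at -0.264 to 0.0844 between them. The script was also run on simulated data that differ from the real values. The noise of each simulated gene was capped at the median within-pair spread over genes, and there was no floor at 1. That run therefore gives no measure of how reliable the calls are.

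The comparison, lists and rule for named genes were chosen with earlier results of these data known. Named were the 12 highest and 12 lowest called genes with a mean value of 10 or more, predicted genes left out, up to 3 called members of each of 39 lists, all members of 5 cartilage lists, set check genes and the 4 least different abundant genes. Other genes described were picked as examples after their values were seen. Lists got counts and medians, no test; medians include genes at 1 throughout a tissue, whose fitted difference depends on the added value. Of 711 list members, 273 were called and 147 of these in every fit without 1 library. The alternatives are given with their effects in the closing section; the restriction to genes above 1 in all control libraries was chosen after seeing the data. Some genes are not reported here.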

Additional observations from a re-analysis of the deposited data

Results flagged for a closer look

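For 8 of the named genes the tissue difference in control pairs differed from that in the 3 pairs with AcanCreER, by the interaction term of the same limma fit. Over all genes this term was called for 27 of 14712 (0.184%). In each of the 8 the growth plate excess was larger in the control pairs. Col9a1 had a log2 difference of 9.03 in control and 4.50 in mutant pairs, a difference of 4.53 ± 0.59 (SE, adjusted p = 0.0422). Ppa1, an inorganic pyrophosphatase gene, had 5.48 and 1.07, a difference of 4.41 ± 0.57 (adjusted p = 0.0422). Matn1 had 4.23 and -0.01, a difference of 4.25 ± 0.43 (adjusted p = 0.0166).

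Nrgn, the gene of the calmodulin-binding protein neurogranin, differed by 3.76 ± 0.53 between control and mutant pairs, and Cdkn1c by 3.46 ± 0.24. For the basement membrane genes Nid2 and Hspg2 the control excess was larger by 2.85 ± 0.34 and 2.07 ± 0.28, and for Panx3 by 2.32 ± 0.24. In mutant pairs the tissue difference itself was called for Col9a1, Nid2 and Panx3 among these 8. The count of 27 fell to between 0 and 3 in the fits without 1 control library, so these flags rest on all 3 control pairs.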

How the results depend on the processing

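No named gene with a call changed direction under any alternative run, though most of these runs could not have changed it. Every called gene had the same direction in all 3 pairs. Leaving out a pair or changing the added value therefore keeps that direction. Changes of block, gene filter or empirical Bayes leave the difference itself unchanged. A change of direction was possible only under quantile normalisation or median ratio scaling. Of the 135 named genes with a call, 91 were called in all 12 alternatives in which they were tested and 97 in all 6 fits without 1 library. Some named genes without a call gained one: Clec3a and Pthlh in 5 of the 12 alternatives, Ptch1 in 4 and Hhip in 3. These 4 genes were called in 0 of the 6 fits without 1 library. The count of 1896 moved by over 1.5 times when pairs or degrees of freedom were removed, which these alternatives do by construction. It was 866 (313 higher, 553 lower) with the 6 control libraries alone, against 4022 at an unadjusted p under 0.05 in that fit and 3875 in the main one. With the Sox9 floxed sets alone it was 1058 (393 higher, 665 lower). Without 1 control library it was 894 to 1063, with 301 to 377 higher and 592 to 688 lower.

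The other alternatives gave 1524 to 2051 calls. Without the replicate block 1524 genes were called (480 higher, 1044 lower), and with the pairing by set 1990. Quantile normalisation and median ratio scaling raised the share of calls that are higher from 33.1% to 47.3% and 46.3%, and moved the median of all genes from -0.10 to 0.00 and 0.02.

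The count of 27 for the interaction was 15 with an added value of 0.1, 63 with protein-coding genes alone, 1 with empirical Bayes without trend or robustness, 0 with the Sox9 floxed sets alone and 0 to 3 without 1 library; the cause was not tested. Pairs of unlike genotype and day have 1 library per tissue, so pair and condition cannot be told apart, and at values near 1 log2 differences depend on the added value.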

Other observations

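Several groups of genes outside the main account also differed between the control tissues. Of 26 immediate early genes, 7 were lower and 2 higher in growth plate. Dusp1, a phosphatase that turns off MAP kinases, was at 62.5, 62.2 and 93.6 in articular cartilage and 9.65, 9.36 and 14.2 in growth plate, in the order of pairs used above. Ctgf, a matricellular growth factor and target of the mechanically regulated factor YAP, was at 1368, 2353 and 1482 against 207, 766 and 274. Neither overlapped. Whichever pair was left out, 4 of the 7 lower calls were counted, while 0 genes were called higher without the day 7 pair and 1 without the day 14 pair. Among 19 mechanosensing genes, 4 were lower, led by the fibronectin receptor subunit Itga5 (-1.69 ± 0.20) and the polycystin Pkd2 (-1.40 ± 0.19), and 3 were higher, of which 1 was called whichever pair was left out.

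Of 22 complement and cytokine genes, 6 were lower, 1 higher and 15 not called. The complement gene C3 and the lipocalin gene Lcn2 were at 1 in all 3 growth plates and at 16.99, 14.8 and 67.3 and at 11.1, 26.3 and 21.99 in articular cartilage. Tnfrsf11b, the gene of osteoprotegerin, which blocks osteoclast formation, was at 304, 473 and 424 against 32.5, 63.7 and 33.0, a difference of -3.24 ± 0.46. The basement membrane genes Nid2 and Hspg2 had the opposite order: Nid2 was at 5.19, 5.02 and 4.61 in articular cartilage and 229, 114 and 112 in growth plate. Of 20 genes of that list 3 were higher and 1 lower, and 7 were higher without the double-floxed pair.

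Of 28 ribosomal protein genes 3 were called higher by limma, 6 under quantile normalisation, 12 under median ratio scaling and 0 whichever pair was left out.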
